A study of Mus musculus with 12 samples.

Results

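The genes described here encode the enzymes and membrane proteins of the lysosome, 36 genes chosen by name from a fixed list: cathepsins and other proteases, glycan and lipid hydrolases, membrane proteins, subunits of the proton pump and the regulator Tfeb. All 36 were found by symbol among the 19938 genes that have a probe set (called a row) of their own in the table, and each had a single row. The RNA came from Min6, an insulin-secreting line derived from a mouse insulinoma and used as a model of the pancreatic beta cell. It was measured on 12 arrays in 3 culture groups of 4, each grown for 3 periods of 5 days. CC (classic condition) cells stayed in DMEM with 15% fetal calf serum and 70 µM 2-mercaptoethanol at 20% oxygen. Both media held Pen-Strep (penicillin and streptomycin) at 100 µg/mL. DC (defined condition) cells had the last 10 days at 5% oxygen in serum-free DMEM-F12 supplemented with progesterone (20 nM), selenite (30 nM), putrescine (100 µM) and apo-transferrin (100 µg/mL). RC (return condition) cells had 5 days of that medium and oxygen level and then 5 days back in the serum medium at 20% oxygen. Serum, basal medium, oxygen and supplements changed together and cannot be told apart, and DC and RC also differ in the length of the serum-free exposure. The 4 samples of a group came from a single experiment, so p-values measure only the spread between these samples, which may be technical.

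The lysosome is the acidic compartment in which cells break down proteins, glycans and lipids delivered by endocytosis and autophagy. Its hydrolases are tagged with mannose 6-phosphate in the Golgi, its lumen is acidified by the vacuolar proton pump (V-ATPase), and its membrane is lined with heavily glycosylated proteins such as LAMP1 and LAMP2. Many lysosomal genes carry the CLEAR element, an E-box bound by the factors TFEB, TFE3 and MITF, which enter the nucleus when nutrient signalling through mTORC1 is low. In beta cells lysosomes also degrade surplus insulin granules.

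Promoter windows of 300 bases (250 before to 50 after the annotated start, from RefSeq, build GRCm38.p6) were at hand for 31 of the 36 genes and were searched on both strands. The core E-box CACGTG was found in the windows of 13 of these 31 genes (41.9%), against 8.09% of all 27025 genes and 7.15% of all 32851 windows. The longer form GTCACGTG, which contains that core, was found in 10 of 31 (32.3%), against 2.55% of all genes. The related letters CATGTG were found in 9 (29%), against 15.9% of all genes. Stretches of 30 bases around the nearest site before the start are printed for the 10 genes, to show the shared sequence. Capitals mark GTCACGTG or its reverse complement, each read 5′ to 3′ in the direction of the gene. In Cln3 both orientations overlap.
Atp6v0d1 (chr8:105566051-105566080, minus strand): gccctactgcgGTCACGTGagacgcggtgc
Cln3 (chr7:126583339-126583368, minus strand): acgggtactGTCACGTGACccccaacctgc
Ctsa (chr2:164833748-164833777, plus strand): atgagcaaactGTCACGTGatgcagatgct
Ctsd (chr7:142387907-142387936, minus strand): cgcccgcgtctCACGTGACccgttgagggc
Gla (chrX:134601183-134601212, minus strand): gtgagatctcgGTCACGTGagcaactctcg
Glb1 (chr9:114401017-114401046, plus strand): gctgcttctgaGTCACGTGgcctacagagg
Lamp1 (chr8:13159122-13159151, plus strand): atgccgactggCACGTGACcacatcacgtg
Mcoln1 (chr8:3500463-3500492, plus strand): ggcgccccgctCACGTGACcgcggcgcatg
Naglu (chr11:101070008-101070037, plus strand): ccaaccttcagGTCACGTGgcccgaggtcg
Sgsh (chr11:119355521-119355550, minus strand): ggcctgccgtgCACGTGACcgtggggagcg
The sites began between 5 and 196 bases before the start, and such a match is a description of the letters, not of binding.

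Arrays differed from each other beyond the groups. Array medians ran from 7.92 to 8.05 on the log2 scale, and interquartile ranges from 2.42 (RC 3) to 2.75 (CC 2). By group the interquartile ranges ran from 2.57 to 2.75 in CC, from 2.44 to 2.60 in DC and from 2.42 to 2.65 in RC. The spread of the arrays thus differed between CC and DC as well. RC 3 had the lowest mean correlation with its own group, 0.976 against 0.989 to 0.990 for the other RC arrays. DC 3 was the highest of the DC arrays for 33 of the 36 lysosomal genes, with a median of 0.18 above the group mean. The same array was highest for 20% of all rows and for 43.2% of the 5079 rows with a mean of at least 10 (the high rows). RC 3 was the lowest RC array for 22 of the 36 genes, against 34.3% of all rows and 58.5% of the rows with a mean of at least 10. CC 2 was the lowest CC array for 24 of the 36 (29.1% of all rows and 21% of the high rows), and CC 4 the highest for 19 (24.5% and 14.2%). RC 4 was the highest RC array for 19 (20.3% and 34.2%). Results that rest on DC 3 or RC 3 are therefore given with and without them, and what set these arrays apart was not tested. Of 18 measured beta cell markers 16 lay above the median of all values, 7.99, the exceptions being Slc2a2 and Ucn3. Of 15 macrophage and leukocyte markers 1 did, Cd68, itself a lysosomal membrane protein, and of 13 fibroblast and endothelial markers 4 did. Of the beta cell markers 3 (Pax6, Nkx2-2 and Slc30a8) rose and 1 (Chgb) fell in DC against CC by the limma test described below, and the same 3 fell in RC against DC. No marker of the last 2 lists passed in any comparison. Their means were higher in DC than in CC for 14 of 15 and 13 of 13, with medians of 0.14 and 0.17 beside 0.04 over all rows. At an unadjusted limma p under 0.05, 3 and 2 of them were higher and 1 and 0 lower, against 9.91% and 10.7% of all rows. Their part in the results below was not tested.

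**Figure D1:**
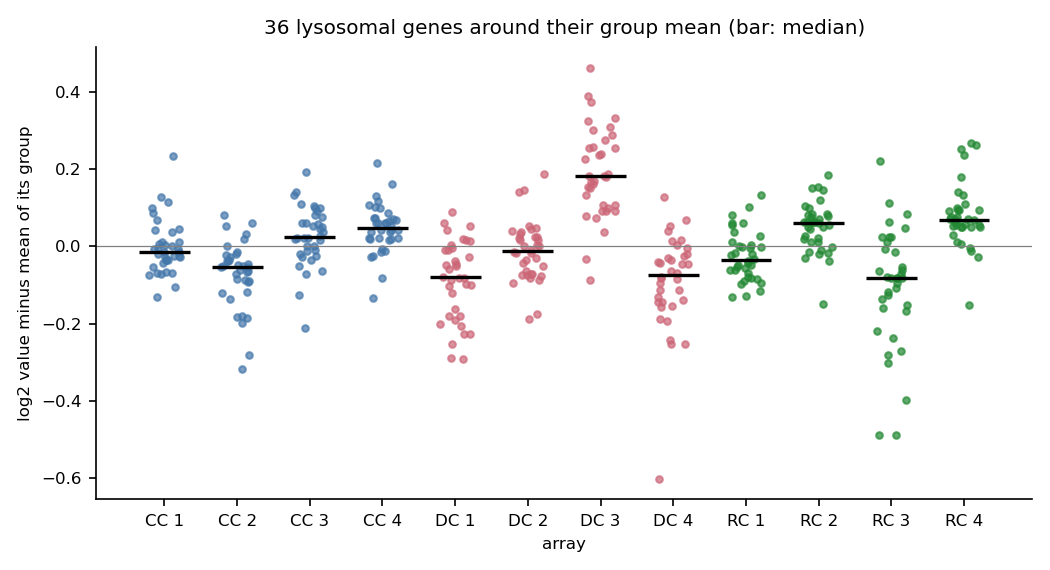
Each point is a lysosomal gene on an array, drawn as its log2 value minus the mean of that gene in its own group of 4 arrays, and the bar is the median of the 36 genes. The DC 3 points sit mostly above 0, with a median of 0.18, while the RC 3 median is -0.08.

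DC was compared with CC to ask what 10 days without serum at 5% oxygen did to these genes. The acid lipase gene Lipa and the cathepsin gene Ctsz fell, no member rose, and the other 34 did not pass. That is 2 of 36 members (5.56%), against a background of 6.64% of all 35556 rows called (2.31% higher and 4.32% lower). Of the 5079 rows with a mean of at least 10, a level that 29 of the members reach, 15.7% were called (4.19% higher and 11.5% lower). The members' share thus lies near that of all rows and below that of the high rows. The call here and below is a Benjamini-Hochberg adjusted p under 0.05 from limma, a linear model fitted to all rows and all 12 arrays. At an unadjusted limma p under 0.05, 15 members were lower and 1 higher, against 10.7% and 9.91% of all rows and 23.1% and 8.78% of the high rows. The means of 24 of the 36 genes were lower in DC, against 39.7% of all rows and 61% of the high rows. The median log2 difference was -0.12 over the members, 0.04 over all rows and -0.05 over those high rows. After every array was centred on the same median, the members had a median of -0.17 and all rows one of -0.01. There 6 members fell, against 4.78% of all rows called lower and 1.41% higher. With quantile normalization the members' median was -0.09 and that of all rows 0.03. In that fit 2 members fell, against 4.28% of all rows called lower and 2.98% higher. With the interquartile range of each array as a covariate, the medians were -0.13 and 0.01. Again 2 members fell, against 3.52% and 3.38%. For every one of the 36 members the 95% interval of the difference excluded a change of 2-fold, and for 29 it excluded 1.5-fold.

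The count depended on DC 3. Without that array 10 members fell in DC and none rose by the limma test: Ctsb, Ctsz, Ppt1, Tpp1, Cln3, Hexa, Gla, Lipa, Scarb2 and Cd63, against 4.09% of all rows called lower and 1.66% higher in that fit. Without RC 3, an array of the other group that counts only toward the shared error, 7 fell, against 6.68% of all rows called lower and 3.77% higher. Without RC 3, DC 2 and DC 4, the arrays of narrowest spread, Lipa alone fell. For the fits with rescaled arrays or with arrays left out, here and below, shares of the high rows were not computed. The members, mostly high rows, are therefore set beside all rows only in those fits.

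**Figure D2:**
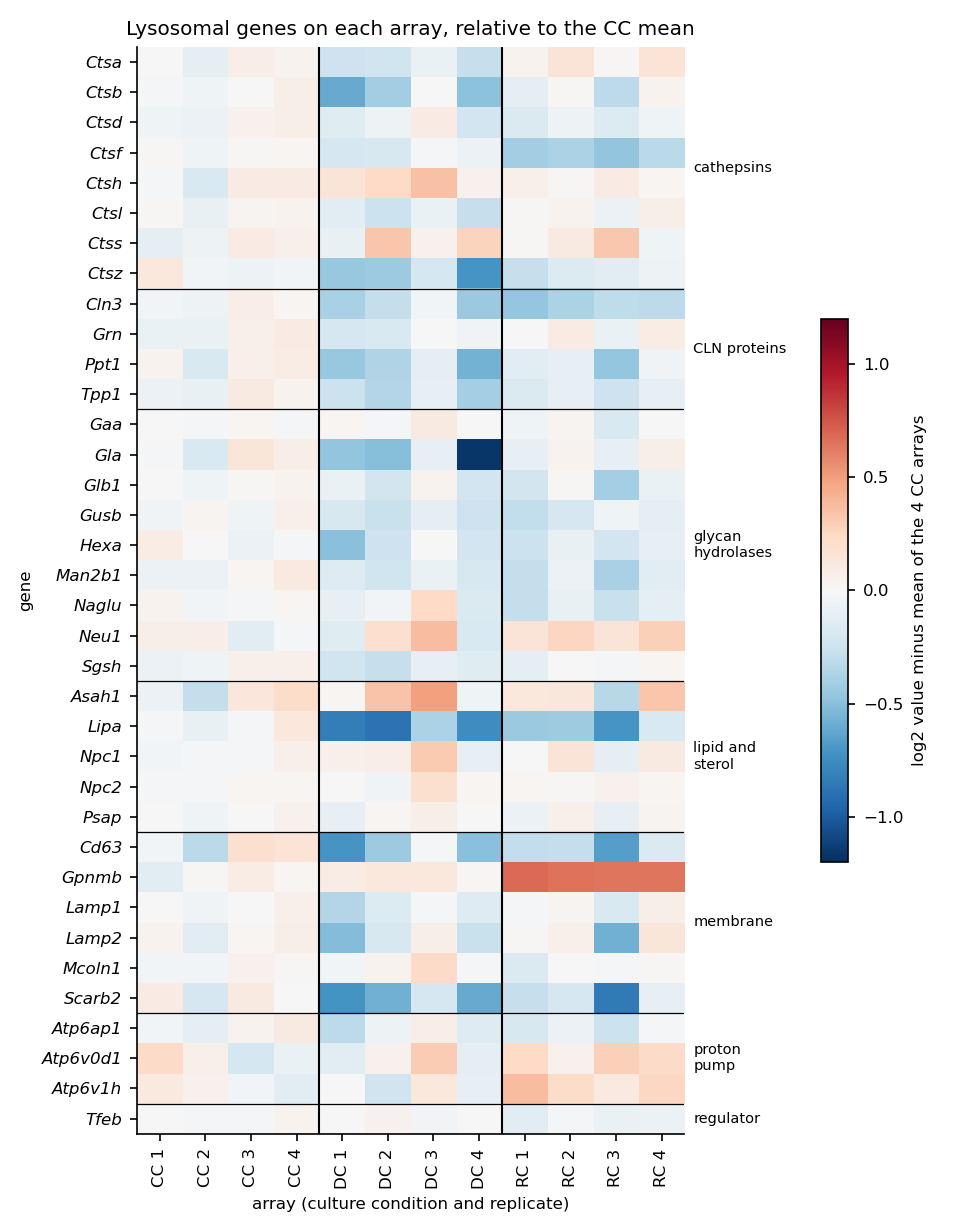
Rows are the 36 lysosomal genes ordered by role and columns the 12 arrays, and the colour gives the log2 value minus the mean of the 4 CC arrays (blue lower, red higher). Lipa is blue across the DC arrays, Gpnmb is red on the 4 RC arrays, and DC 3 is the highest DC array for 33 of the 36 genes.

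Lipa encodes lysosomal acid lipase, which frees cholesterol and fatty acids from the esters of endocytosed lipoproteins. Its row (probe set 10467139) read 10.31, 10.23, 10.29 and 10.45 on the CC arrays, 9.49, 9.44, 9.94 and 9.58 on the DC arrays and 9.88, 9.89, 9.61 and 10.14 on the RC arrays. All 4 DC values and all 4 RC values lay below the CC values, and among the DC arrays DC 3 was the highest. The log2 difference in DC, with its standard error over groups of 4, was -0.71 ± 0.12, a fall of 1.64-fold (limma adjusted p = 0.00356), and the call held with any array left out (adjusted p up to 0.0159). The RC mean lay between the other groups, 0.27 ± 0.12 from DC (adjusted p = 0.417) and -0.44 ± 0.12 from CC (adjusted p = 0.163), and neither of these passed. In an array signal from a whole culture, less RNA per cell and fewer cells that express a gene cannot be told apart.

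The other lipid genes, Psap, Npc1, Npc2 and Asah1, did not pass in any comparison. Psap is the precursor of the saposins that present sphingolipids to their hydrolases. Its group means, with SD over 4 arrays, were 13.38 ± 0.04 (CC), 13.38 ± 0.07 (DC) and 13.36 ± 0.08 (RC). The DC against CC difference had a 95% interval of -0.13 to 0.13 and that of RC against DC one of -0.15 to 0.11. Npc1 and Npc2 export cholesterol from the lysosome. Npc1 differed by 0.09 ± 0.09 in DC against CC (95% interval -0.10 to 0.28), and Npc2 by 0.04 ± 0.06 (-0.09 to 0.17). The acid ceramidase gene Asah1 was the most scattered of this group, with 10.86, 10.64, 11.06 and 11.14 in CC and 11.05, 11.06, 10.59 and 11.26 in RC, and its difference in DC was 0.20 ± 0.16 (adjusted p = 0.446).

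Of the 8 cathepsins, the main lysosomal proteases, Ctsz fell in DC, Ctsa and Ctsf passed in comparisons with RC, and Ctsb, Ctsd, Ctsh, Ctsl and Ctss did not pass in any. Cathepsin Z is a cysteine carboxypeptidase. Ctsz (probe set 10490212) read 12.59, 12.43, 12.40 and 12.43 on the CC arrays, 12.004, 12.02, 12.25 and 11.75 on the DC arrays and 12.19, 12.30, 12.33 and 12.40 on the RC arrays. The DC values lay below all CC values. The RC values overlapped with DC at DC 3 and with CC at CC 3. The fall was -0.45 ± 0.09 (1.37-fold; limma adjusted p = 0.0106). It passed with each array left out in turn (adjusted p up to 0.042), but not without RC 3, DC 2 and DC 4 (0.0739) or with only CC 3 and CC 4 (0.130) or CC 1 and CC 2 (0.0507) as controls. RC against DC was 0.30 ± 0.09 and RC against CC -0.16 ± 0.09, neither past the threshold.

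Ctsa encodes the protective protein, a serine carboxypeptidase that stabilises the sialidase Neu1 and the beta-galactosidase Glb1 in a complex. Its values (probe set 10478594) were 12.37, 12.25, 12.44 and 12.41 on the CC arrays, 12.12, 12.13, 12.29 and 12.09 on the DC arrays and 12.41, 12.52, 12.38 and 12.53 on the RC arrays. Every RC value lay above every DC value, and the rise in RC against DC was 0.30 ± 0.07 (1.23-fold; limma adjusted p = 0.0337). DC against CC was -0.21 ± 0.07 (adjusted p = 0.098) and RC against CC 0.09 ± 0.07 (adjusted p = 0.738). The rise did not pass when any of 8 arrays was left out (CC 1 or CC 4, any DC array but DC 3, any RC array but RC 3), with values of up to 0.121. Its partners in the complex did not pass: Neu1 was at 0.16 ± 0.11 and Glb1 at -0.05 ± 0.09 in RC against DC.

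Ctsf, a cysteine protease, had its lowest level after the return. It read (probe set 10460468) 10.44, 10.38, 10.45 and 10.45 on the CC arrays, 10.23, 10.24, 10.42 and 10.36 on the DC arrays and 10.01, 10.05, 9.96 and 10.11 on the RC arrays. The RC values lay below all CC and all DC values, while CC and DC overlapped. The fall was -0.28 ± 0.06 in RC against DC (1.21-fold; limma adjusted p = 0.029) and -0.40 ± 0.06 in RC against CC (1.32-fold; adjusted p = 0.0129), with DC against CC at -0.12 ± 0.06 (adjusted p = 0.284). The first call was lost when DC 3 or DC 4 or either of RC 1 and RC 2 was left out (highest adjusted p 0.101), and the second without CC 3, CC 4 or RC 1 (highest 0.0616).

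Among the other cathepsins, Ctsd, the main aspartic protease, read 12.60, 12.58, 12.70 and 12.72 on the CC arrays, 12.51, 12.59, 12.75 and 12.42 on the DC arrays and 12.47, 12.59, 12.48 and 12.60 on the RC arrays, and its groups overlapped throughout. Its differences were -0.08 ± 0.07, -0.03 ± 0.07 and -0.12 ± 0.07 in DC against CC, RC against DC and RC against CC. Ctsb, a cysteine protease, had 12.12, 12.10, 12.15 and 12.22 in CC and 11.54, 11.73, 12.14 and 11.65 in DC. Of these DC values, that of DC 3 lay among the CC values and the other 3 below them. The difference was -0.38 ± 0.12 (adjusted p = 0.0815). Ctsl, a cysteine endoprotease, was 0.20 ± 0.06 in RC against DC (adjusted p = 0.167), with all RC values above all DC values. Ctsh and Ctss lay below the median of all values at 6.52 ± 0.13 and 7.13 ± 0.10 in CC, and their distance from background was not measured.

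**Figure D3:**
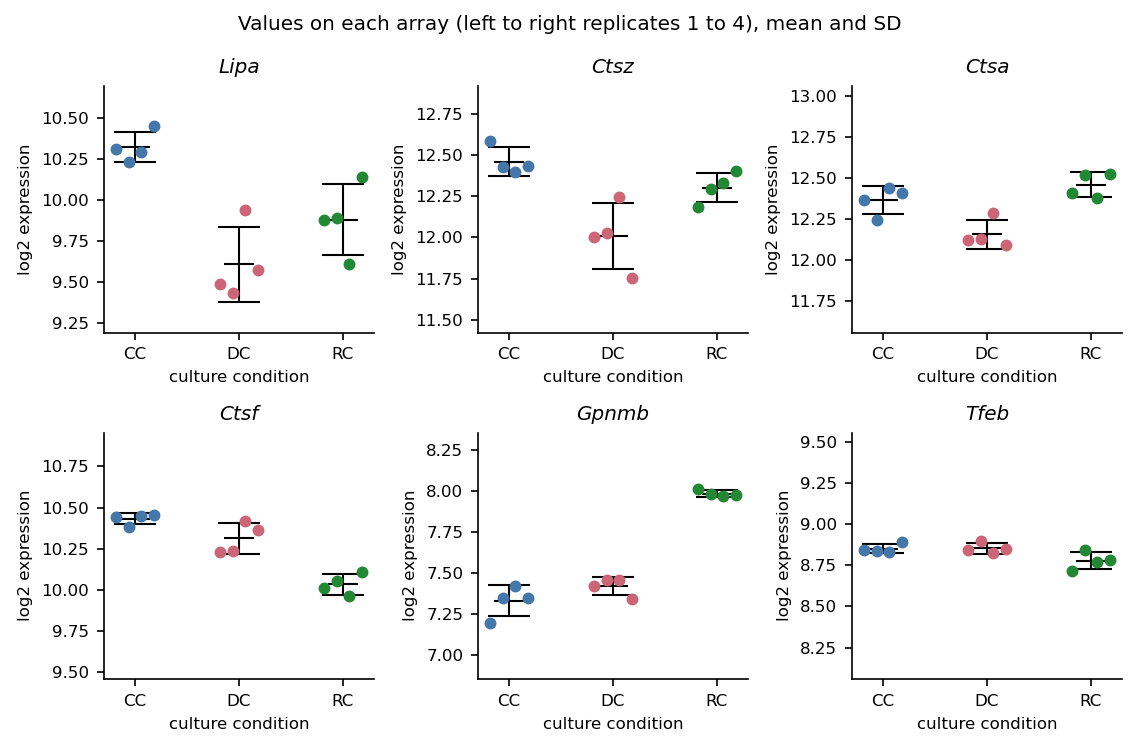
Points are log2 values on single arrays (replicates 1 to 4 from left to right in each group) and bars the mean ± SD of 4, each panel spanning 1.5 log2 units. Lipa and Ctsz are lower in DC than in CC, Ctsa is higher in RC than in DC, Ctsf is lowest and Gpnmb highest in RC, and Tfeb stays near 8.85 in CC and DC.

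Stretches of 150 bases before the start are printed for the 5 genes that passed in any comparison, so that they can be set beside the sites above. Capitals mark the core CACGTG.
Lipa (chr19:34527475-34527624, minus strand): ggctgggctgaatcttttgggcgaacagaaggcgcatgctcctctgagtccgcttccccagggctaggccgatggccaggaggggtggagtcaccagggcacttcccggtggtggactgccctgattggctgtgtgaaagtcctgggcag
Ctsz (chr2:174439040-174439189, minus strand): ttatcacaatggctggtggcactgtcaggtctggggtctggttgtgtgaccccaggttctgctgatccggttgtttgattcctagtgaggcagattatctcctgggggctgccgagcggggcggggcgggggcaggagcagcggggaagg
Ctsa (chr2:164833623-164833772, plus strand): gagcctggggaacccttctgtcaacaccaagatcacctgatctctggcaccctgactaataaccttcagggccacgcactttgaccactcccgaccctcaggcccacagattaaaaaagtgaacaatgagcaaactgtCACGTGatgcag
Ctsf (chr19:4855015-4855164, plus strand): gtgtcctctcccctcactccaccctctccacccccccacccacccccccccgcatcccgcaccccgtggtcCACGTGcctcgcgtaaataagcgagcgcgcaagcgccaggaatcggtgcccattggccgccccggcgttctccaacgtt
Gpnmb (chr6:49036368-49036517, plus strand): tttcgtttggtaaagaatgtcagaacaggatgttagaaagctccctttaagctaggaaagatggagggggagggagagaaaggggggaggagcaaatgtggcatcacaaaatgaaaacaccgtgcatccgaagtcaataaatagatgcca
Ctsa and Ctsf hold the core in these stretches. For Lipa, Ctsz and Gpnmb it was not found in the whole 300-base window. Members with GTCACGTG in their window and members without it had these medians, with no test of their difference: -0.15 over 10 genes and -0.17 over 21 in DC against CC, 0.06 and 0.08 in RC against DC, and -0.04 and -0.13 in RC against CC.

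Ppt1, Tpp1, Cln3 and Grn, like Ctsd and Ctsf, are genes whose loss causes forms of neuronal ceroid lipofuscinosis, a storage disease of neurons. None of these first 4 passed in any comparison as deposited. At an unadjusted limma p under 0.05, 3 were lower in DC than in CC (10.7% of all rows and 23.1% of the high rows). Tpp1, a serine tripeptidyl peptidase, came closest in DC: it read 11.68, 11.66, 11.85 and 11.79 in CC and 11.49, 11.39, 11.65 and 11.34 in DC, with all DC values below the CC values, a difference of -0.28 ± 0.08 and a limma adjusted p = 0.051. RC read 11.57, 11.64, 11.49 and 11.64. Cln3, which encodes a membrane protein of uncertain transport function, read 10.26, 10.23, 10.37 and 10.31 on the CC arrays, 9.90, 10.01, 10.26 and 9.85 on the DC arrays and 9.83, 9.91, 9.99 and 9.98 on the RC arrays. Its RC values lay below all CC values, with differences of -0.36 ± 0.08 in RC against CC (adjusted p = 0.0798) and -0.29 ± 0.08 in DC against CC (adjusted p = 0.068). Ppt1, a palmitoyl-protein thioesterase, was -0.37 ± 0.11 in DC (adjusted p = 0.0756), and the progranulin gene Grn -0.11 ± 0.07 (adjusted p = 0.368). Both Tpp1 and Cln3 passed in DC against CC when the arrays were centred on a common median (adjusted p = 0.0349 and 0.0382). With single arrays left out, their limma adjusted p ran up to 0.157 and 0.184. In RC against CC Cln3 passed with centred arrays (0.0489), among the rows at or above the median (0.0441), with only the compared groups in the fit (0.0368), with array weights (0.00214) and without DC 3 (0.0297). It did not pass in the other settings run, with a limma adjusted p of up to 0.241 when single arrays were left out.

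None of the 9 glycan and glycogen hydrolases passed in any comparison. At an unadjusted limma p under 0.05, 4 were lower in DC than in CC, 2 higher in RC than in DC and 3 lower in RC than in CC. The shares were 10.7%, 6.78% and 5.63% of all rows and 23.1%, 13.7% and 13.9% of the high rows. The alpha-galactosidase gene Gla spread most: it read 10.83, 10.67, 10.99 and 10.92 on the CC arrays, 10.38, 10.34, 10.75 and 9.69 on the DC arrays and 10.75, 10.90, 10.75 and 10.93 on the RC arrays. DC 4 was its lowest value and DC 3 lay within the CC range. The difference of -0.56 ± 0.17 in DC against CC had an adjusted p = 0.0772 and that of 0.54 ± 0.17 in RC against DC an adjusted p = 0.16. In RC against CC Gla was at -0.02 ± 0.17. The DC and CC arrays did not overlap for Gusb (beta-glucuronidase, -0.21 ± 0.07), Man2b1 (alpha-mannosidase, -0.17 ± 0.08) or Sgsh (heparan sulfamidase, -0.19 ± 0.06), with limma adjusted p from 0.0936 to 0.249. In all, the DC values lay wholly below the CC values for 6 members and wholly above for 0, against 7.96% and 7.29% of all rows. These shares were not computed for the high rows, to which most members belong. The acid alpha-glucosidase gene Gaa, which degrades glycogen, was among the steadiest, at 12.95 ± 0.02, 12.98 ± 0.05 and 12.90 ± 0.10 for the 3 groups in the order CC, DC, RC (SD, n = 4). Hexa, Glb1, Naglu and Neu1 differed between DC and CC by -0.25, -0.12, -0.02 and 0.06.

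Among the membrane proteins Gpnmb rose in RC, and the others did not pass. Gpnmb encodes a glycoprotein of melanosomes and lysosomes whose gene is known as a target of MITF and TFE3 in other cells. It read (probe set 10538187) 7.20, 7.35, 7.42 and 7.35 on the CC arrays, 7.42, 7.45, 7.45 and 7.34 on the DC arrays and 8.01, 7.98, 7.97 and 7.97 on the RC arrays. CC and DC overlapped, and the 4 RC values, from 7.97 to 8.01, lay above all of them. The rise was 0.56 ± 0.06 against DC (1.48-fold; limma adjusted p = 0.000209) and 0.65 ± 0.06 against CC (1.57-fold; adjusted p = 0.000422), with DC against CC at 0.09 ± 0.06 (adjusted p = 0.373). Both calls held whichever array was left out (highest adjusted p 0.00158 and 0.00348). The CC and DC values lay below the median of all values, 7.99, and the RC values near it, and their distance from background was not measured. Gpnmb is also abundant in macrophages, and the array medians of the 15 macrophage and leukocyte markers ran from 6.89 to 6.996 in CC, from 6.92 to 7.12 in DC and from 6.95 to 7.33 in RC. Their part in the result was not tested.

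Lamp1, the most widely used marker of the lysosomal membrane, read 12.37, 12.33, 12.36 and 12.43 on the CC arrays, 12.02, 12.20, 12.36 and 12.21 on the DC arrays and 12.35, 12.41, 12.19 and 12.44 on the RC arrays. DC 1 was the lowest value and DC 3 matched the CC arrays, and the difference in DC was -0.17 ± 0.08 (95% interval -0.344 to -0.0025; limma adjusted p = 0.239). Lamp2 was -0.23 ± 0.15 (adjusted p = 0.379), with RC 3 at 11.67 below the other RC arrays. Scarb2, the receptor that carries glucocerebrosidase to the lysosome, read 11.37, 11.07, 11.37 and 11.26 on the CC arrays, 10.55, 10.69, 11.07 and 10.66 on the DC arrays and 10.99, 11.07, 10.42 and 11.16 on the RC arrays. In DC all but DC 3, which lay level with CC 2, were below the CC values, and RC 3 was the lowest of the 12, with differences of -0.52 ± 0.16 in DC against CC (adjusted p = 0.0707) and -0.35 ± 0.16 in RC against CC (adjusted p = 0.517). The tetraspanin Cd63 was -0.42 ± 0.16 and -0.35 ± 0.16 in the same comparisons, and the calcium channel Mcoln1 0.05 ± 0.07 and -0.05 ± 0.07.

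The 3 proton pump genes did not pass. At an unadjusted limma p under 0.05, 1 was higher in RC than in DC and 1 in RC than in CC. The shares were 6.78% and 3.42% of all rows and 13.7% and 4.57% of the high rows. Atp6v1h, a subunit of the cytosolic V1 sector that hydrolyses ATP, read 10.08, 10.02, 9.93 and 9.83 on the CC arrays, 9.97, 9.73, 10.10 and 9.87 on the DC arrays and 10.34, 10.19, 10.08 and 10.22 on the RC arrays. Its RC mean was higher by 0.29 ± 0.09 than that of DC (limma adjusted p = 0.135) and by 0.24 ± 0.09 than that of CC (adjusted p = 0.365), and the RC values overlapped with both. Atp6v0d1, of the membrane sector, had CC 1 and CC 2 above CC 3 and CC 4, and differed by 0.02 ± 0.11 in DC against CC. The accessory subunit Atp6ap1 was at -0.11 ± 0.09 in that comparison and -0.02 ± 0.09 in RC against DC.

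The regulator Tfeb was the member with the smallest standard error of its differences. It read 8.85, 8.84, 8.83 and 8.89 on the CC arrays, 8.85, 8.90, 8.82 and 8.85 on the DC arrays and 8.72, 8.84, 8.77 and 8.79 on the RC arrays, with overlap between all groups. The difference was 0.00 ± 0.05 in DC against CC (95% interval -0.11 to 0.11), -0.08 ± 0.05 in RC against DC (-0.18 to 0.03) and -0.07 ± 0.05 in RC against CC (-0.18 to 0.03), none past the threshold (limma adjusted p = 0.981, 0.663 and 0.724). The first of these was so near 0 that its sign turned with centred arrays. TFEB protein is controlled largely by phosphorylation and its place in the cell, which arrays do not measure. Of the related factors, Tfe3 differed by 0.03 ± 0.07 and Mitf by -0.26 ± 0.12 in DC against CC, without passing. A second row of Mitf was at 0.02 ± 0.06. Tfec, among the other regulators listed below, was at 0.18 ± 0.08 (limma adjusted p = 0.229). Both of these rows lay below the median of all values.

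RC was compared with DC, and with CC, to ask how levels after a return to serum and 20% oxygen differed from both. RC cells had 5 serum-free days and DC cells 10, so the DC levels are not those from which RC cells returned. Against DC, Ctsa and Gpnmb rose and Ctsf fell, 3 of 36 members (8.33%), against 2.63% of all rows called (1.45% higher and 1.18% lower) and 5.71% of the rows with a mean of at least 10. Against CC, Gpnmb rose and Ctsf fell, 2 of 36 (5.56%), against 0.796% of all rows (0.121% higher and 0.675% lower) and 2.11% of those high rows. These shares rest on 3 and 2 genes. The median member difference was 0.07 in RC against DC and -0.06 in RC against CC, beside -0.01 and 0.03 over all rows and 0.03 and -0.02 over the high rows. Means were lower for 16 members in RC against DC and for 24 in RC against CC, beside 54.8% and 38.4% of all rows and 40.9% and 55.7% of the high rows. At an unadjusted limma p under 0.05, 9 members were higher and 1 lower in RC against DC, beside 6.78% and 5.03% of all rows and 13.7% and 8.37% of the high rows. In RC against CC 2 were higher and 8 lower, beside 3.42% and 5.63% of all rows and 4.57% and 13.9% of the high rows. The RC values lay wholly above the DC values for 3 members and wholly below for 1, against 3.06% and 3.23% of all rows. They lay wholly below the CC values for 7 and wholly above for 2, against 5.45% and 2.49% of all rows. The shares of high rows without overlap were not computed. Without DC 3, 4 members (Ctsa, Ctsb, Gla and Gpnmb) rose and none fell in RC against DC, against 1.05% and 0.757% of all rows, and without RC 3, 3 rose and 1 fell, against 5.57% and 2.56%. The comparisons share arrays, each group entering a pair of them. For the genes named in DC against CC, Lipa was at -0.71, 0.27 and -0.44 and Ctsz at -0.45, 0.30 and -0.16 in DC against CC, RC against DC and RC against CC.

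**Figure D4:**
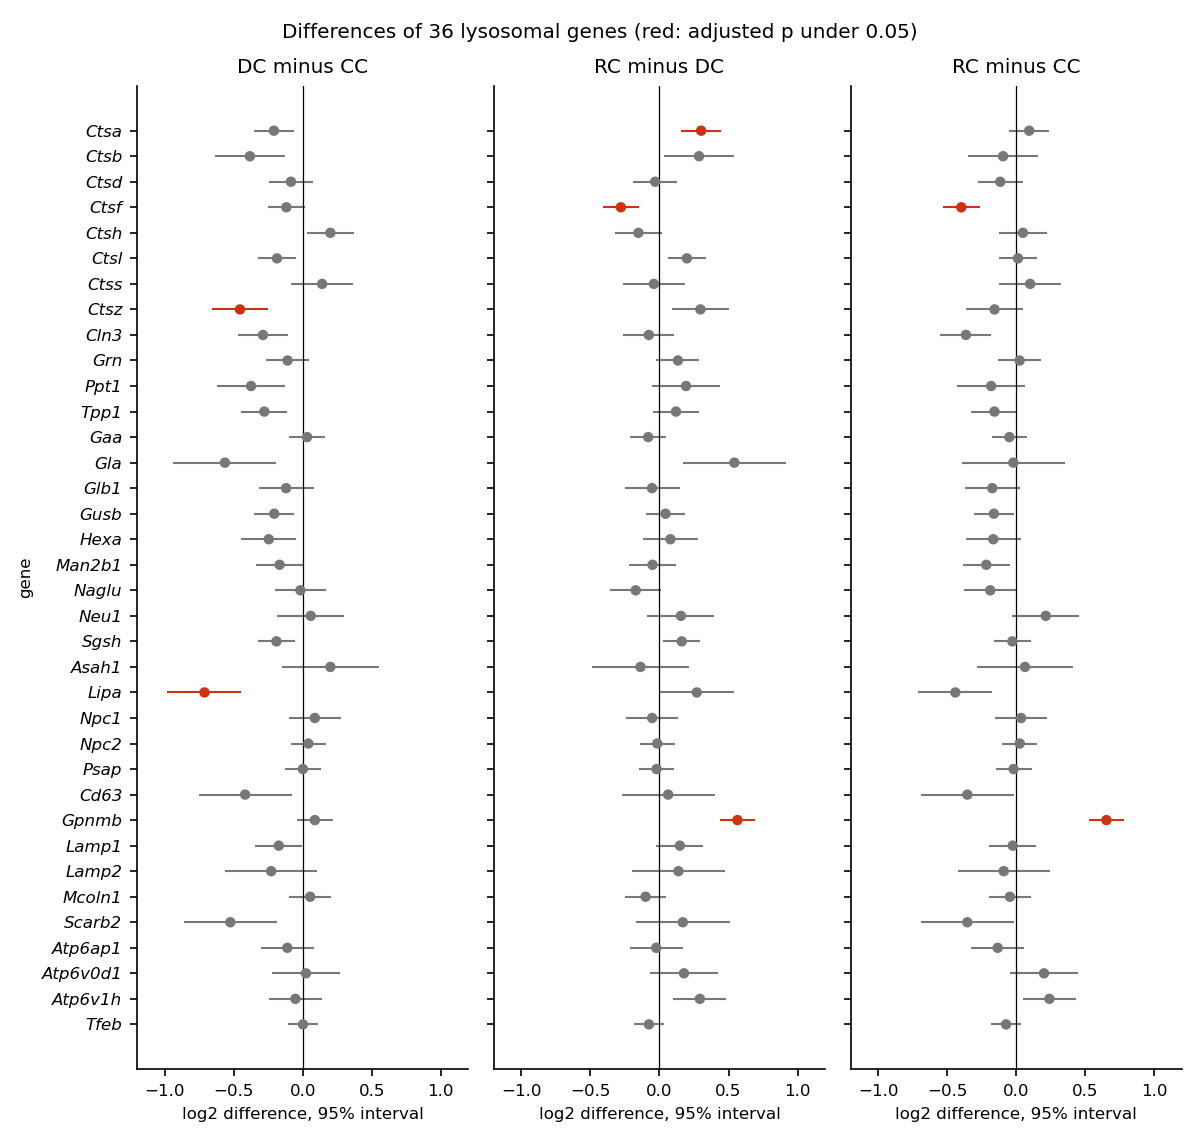
Points are log2 differences of the 36 genes in the 3 comparisons and lines their 95% intervals, red where the adjusted p is under 0.05. Lipa and Ctsz are red in DC minus CC, Ctsa, Ctsf and Gpnmb in RC minus DC, and Ctsf and Gpnmb in RC minus CC.

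The other genes of the pathway were taken from 5 lists of 96 measured genes in all. In DC against CC 12 of them fell and 4 rose (16.7%, against 6.64% of all rows and 15.7% of the rows with a mean of at least 10). Without DC 3, 20 fell and 2 rose, against 4.09% of all rows called lower and 1.66% higher in that fit. Without RC 3, 20 fell and 6 rose, against 6.68% and 3.77%. Among 28 other hydrolases and cofactors 5 fell and 1 rose. Of all rows 4.32% were called lower and 2.31% higher, and of the high rows 11.5% and 4.19%. Smpd1, the acid sphingomyelinase that cleaves sphingomyelin to ceramide, read 12.24, 12.13, 12.13 and 12.12 on the CC arrays, 11.46, 11.38, 11.70 and 11.18 on the DC arrays and 11.98, 11.99, 11.99 and 12.17 on the RC arrays. Its DC values lay below all others, with a fall of -0.73 ± 0.09 in DC (1.65-fold; limma adjusted p = 0.000486) and a rise of 0.60 ± 0.09 in RC against DC (1.52-fold; adjusted p = 0.00362). RC against CC was -0.12 ± 0.09 (adjusted p = 0.748). The keratan sulfate sulfatase Galns (-0.48 ± 0.08) and the heparan acetyltransferase Hgsnat (-0.39 ± 0.09) fell in DC too, and they rose in RC against DC by 0.40 ± 0.08 and 0.47 ± 0.09. The acid phosphatase Acp2 fell by 0.60 and the iduronate sulfatase Ids by 0.26 in DC, without passing in RC against DC (0.16 and 0.17). Tmem192, a membrane protein kept in this list, rose by 0.28 ± 0.07.

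Among 18 other membrane proteins and transporters 4 fell in DC and 1 rose. The falls were Laptm4a (-0.34 ± 0.06), Laptm4b (-0.51 ± 0.09), the amino acid exporter Slc36a1 (-0.41 ± 0.07) and the arginine sensor of mTORC1 Slc38a9 (-0.50 ± 0.10), and the rise was the phosphoinositide phosphatase Pip4p1 (0.36 ± 0.08). Laptm4a was also lower in RC than in CC (-0.31 ± 0.06; limma adjusted p = 0.0362), a call lost without any of 8 arrays (up to 0.142). Of 14 other V-ATPase subunits, Atp6v0a2 (-0.39 ± 0.07) and Atp6v0e2 (-0.39 ± 0.08), both of the membrane sector, fell in DC and none rose (1 was higher at an unadjusted limma p under 0.05). Slc38a9 and Atp6v0a2 each have a second row that did not pass (0.06 and 0.01). Of 16 genes that deliver enzymes to the lysosome Nagpa, which uncovers the mannose 6-phosphate tag, fell (-0.29 ± 0.05). The DC against CC counts of these lists stand beside 4.32% of all rows called lower and 2.31% higher. For the high rows these shares were 11.5% and 4.19%.

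Of 20 regulators of lysosomal genes and of mTORC1 at the lysosome 2 rose in DC and none fell (1 was lower at an unadjusted limma p under 0.05). Of all rows 2.31% were called higher and 4.32% lower, and of the high rows 4.19% and 11.5%. Fnip2 and Flcn encode partners in the folliculin complex, which acts on the Rag GTPases that hold TFEB and TFE3 at the lysosome. Fnip2 read 8.86, 9.07, 8.71 and 8.84 on the CC arrays, 9.29, 9.47, 9.53 and 9.32 on the DC arrays and 9.33, 9.37, 9.20 and 9.47 on the RC arrays. The CC values lay below all DC and RC values, with a rise of 0.53 ± 0.09 in DC (1.45-fold; limma adjusted p = 0.0026) and a difference of 0.47 ± 0.09 in RC against CC (adjusted p = 0.032). Flcn read 9.38, 9.58, 9.39 and 9.46 on the CC arrays, 9.77, 9.96, 9.91 and 9.74 on the DC arrays and 9.77, 9.78, 9.70 and 9.81 on the RC arrays, a rise of 0.39 ± 0.07 in DC (adjusted p = 0.00323). Its difference of 0.31 ± 0.07 in RC against CC did not pass (adjusted p = 0.0597). The second call of Fnip2 was lost without CC 1, CC 3, CC 4, RC 1, RC 2 or RC 4 (up to 0.119). In RC against DC the 96 genes held 3 rises, those of Smpd1, Galns and Hgsnat, and 1 fall, that of the phospholipase Pla2g15 (-0.33 ± 0.08; adjusted p = 0.0451), which was lost without 10 of the 12 arrays in turn. These 4 are 4.17% of the list, beside 2.63% of all rows and 5.71% of the high rows. Without DC 3 the list held 8 rises and no fall by limma, against 1.05% of all rows called higher and 0.757% lower. Without RC 3 it held 9 rises and 1 fall, against 5.57% and 2.56%. The Galns rise was lost without DC 2 or RC 2 (up to 0.0533) and the Hgsnat fall without CC 1 or CC 4 (up to 0.0542).

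**Figure D5:**
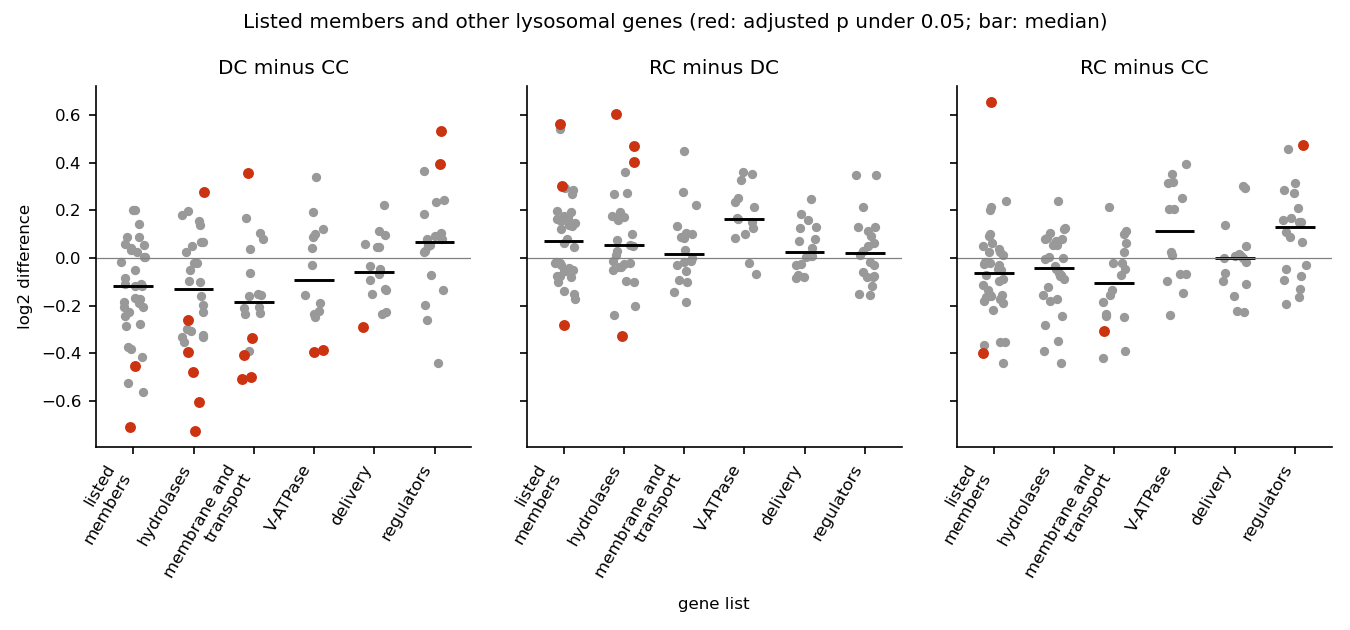
Each point is the log2 difference of a gene, for the 36 listed members and 5 lists of other lysosomal genes, in the 3 comparisons, red where the adjusted p is under 0.05, and bars are medians. In DC minus CC red points lie mostly below 0 among hydrolases and membrane genes and above 0 among the regulators.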

How the data were processed

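RNA of 12 Min6 samples had been labelled with biotin and hybridised to Affymetrix Mouse Gene 1.0 ST arrays, the platform named by the annotation table. The authors deposited 1 log2 expression value per row and array (35556 rows, 3.69 to 14.5), and the log2 scale was read from this range. Summarisation, normalization, background and genome build were not given in the sources used here. No further normalization was applied. Precision is limited by having 4 arrays a group. Group and replicate came from the sample titles. Rows were named where the platform annotation gives exactly 1 symbol (1621 rows have several and 12146 none), and of several rows the one with the highest mean was used.

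A model with 1 mean per group was fitted with limma 3.58.1 in R 4.3.3 (9 residual degrees of freedom, two-sided, Benjamini-Hochberg over all rows of a comparison, threshold 0.05), and was tested on simulated data. Errors of differences are moderated standard errors. Values on every array are given for Tfeb, Lamp1, Ctsd, Gpnmb and, in each comparison, up to 8 called members of smallest adjusted p or, where fewer than 3 passed, the 3 of smallest p. Other members, and Ids, Tmem192, Pip4p1, Tfe3, Mitf and Tfec, were chosen after their values were seen. Up to 4 called genes were named per other list. Members and lists were chosen with earlier results of these data known. Promoter sequences come from RefSeq (GRCm38.p6). The alternatives tried are in the closing section.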

Additional observations from a re-analysis of the deposited data

Results flagged for a closer look

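Of 108 groups of 4 values (36 genes in 3 conditions), 1 held an array whose gap to its nearest neighbour was an unusually large part of the range. It was Ctsf in CC, where CC 2 read 10.38 against 10.44 to 10.45 on the other arrays, a gap of 0.861 of the range, above Dixon's 95% critical value for 4 values. Chance flags about 1 in 20 such groups.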

How the results depend on the processing

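Counts of called members, as deposited 2 (DC against CC), 3 (RC against DC) and 2 (RC against CC), moved by more than 1.5 times as follows. In DC against CC they were 6 with arrays centred on a common median, 8 among rows at or above the median of all values, 14 with array weights, and 1 without RC 3, DC 2 and DC 4 or with either pair of CC arrays (CC 1 and CC 2, or CC 3 and CC 4, chosen after seeing the data). All of these were falls. With centred arrays 4.78% of all rows were called lower and 1.41% higher. Apart from the fit as deposited, this share was otherwise computed only with quantile normalization, with the interquartile range covariate, and without DC 3 or RC 3. The remaining counts here and below, such as those with array weights, therefore have no background beside them. Shares of the high rows were computed only as deposited. In RC against DC they were 10 with array weights, and 1 (Gpnmb) with only the compared groups in the fit, with the replicate block, without RC 3, DC 2 and DC 4, or with CC 1 and CC 2 as the only CC arrays. In RC against CC they were 8 with array weights and 1 (Gpnmb) with the replicate block or either CC pair. Leaving out single arrays gave between 2 and 10 calls in DC against CC, between 1 and 4 in RC against DC, and between 1 and 3 in RC against CC. The 10 came without DC 3, the 4 without DC 3 or RC 3, and the 3 without DC 3.

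For the 96 other genes the counts as deposited were 16, 4 and 2. They became 36, 22 and 30 with array weights, 9 and 6 with CC 3 and CC 4 or CC 1 and CC 2 in DC against CC, and 1 with only the compared groups in RC against DC. In RC against CC they were 5 with quantile normalization, 4 with centred arrays or among the higher rows, 11 with the interquartile range as a covariate, 1 with only the compared groups, 6 without RC 3, DC 2 and DC 4, and 0 with the replicate block in limma or either CC pair, where 31 had an unadjusted p under 0.05 as deposited. Single left-out arrays gave 12 to 26, 2 to 10 and 0 to 4. The 26 and the 10 came without RC 3.

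No called difference of a named gene changed sign under any setting run; some near 0 did, such as Tfeb in DC against CC. Each difference of a named gene was counted once per setting, so the same gene enters many times. With single left-out arrays set aside, 775 such results kept their side of the threshold, 37 gained a call and 49 lost one. The 12 pairs of arrays with the same number had correlations of -0.36 to 0.47 in their deviations from the group means, and 2 were best matched by their own number, so the number was not taken as a pairing. With that block the calls of 2 members, Ctsf and Ctsa, were lost (adjusted p = 0.0733 and 0.094 in RC against DC, and 0.0544 for Ctsf in RC against CC). Signal over background was not measured, which limits what can be said of Ctsh, Ctss and Gpnmb.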
